A study of Oryza sativa Indica Group with 6 samples.

Results

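Leaves of FR13A, a rice that tolerates submergence, were compared with leaves of IR24, a susceptible rice, in plants that had never been under water. The comparison rests on 2 of the 6 arrays of the study, chosen by their label: the 2 arrays called constitutive, whose plants had no treatment and were harvested 14 days after sowing. Each was an Agilent rice oligonucleotide array read in 2 colours, and each held both genotypes. Replicate 1 had FR13A in the red dye Cy5 and IR24 in the green dye Cy3, and replicate 2 had FR13A in Cy3 and IR24 in Cy5, so a constant dye effect cancels in their mean. The other 4 arrays gave part of the estimate of the spread and 1 further comparison. They held FR13A and IR24 after 15 min under water (day 14, 2 arrays) and after 24 h under water (day 15, 2 arrays), with the same exchange of dyes. All plants grew in growth chambers, and submergence was carried out in clear polythene bags. The labels name no transgene or other agent, do not give the number of plants behind a sample, and do not say whether the 2 replicates came from separate plants. The p-values therefore measure the spread between these arrays, which may be technical.

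FR13A is an indica landrace known for surviving complete submergence, and IR24 is a semi-dwarf indica cultivar. Under water a rice leaf runs short of oxygen and carbon dioxide, the gaseous hormone ethylene accumulates, and the plant moves from respiration towards fermentation. Leaves that have not been submerged show which transcripts differed between the genotypes before any of this began. Cultivars of rice also differ in their immune receptor genes of the nucleotide-binding and leucine-rich repeat (NBS-LRR) family, in the pathogenesis-related proteins and antimicrobial metabolites that such receptors switch on, and in mobile elements.

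Of the 22575 spots of an array, 21495 stood for rice genes and 20315 were bright enough on enough arrays to be kept. On the constitutive arrays FR13A was well above background at 19924 gene probes on replicate 1 and 19570 on replicate 2, and IR24 at 18762 and 19326. The genotype difference of a probe is given as log2 of FR13A over IR24, the mean of 2 arrays, and SE is its standard error in limma. A probe is called where its adjusted p was under 0.05. In all, 1249 of 20314 probes tested were called (6.15%), 644 higher in FR13A (3.17%) and 605 lower (2.98%). The 2 directions were close in number and in size, with a median of 0.89 for the probes called higher and -0.92 for those called lower. Among the called probes, 530 (2.61% of those tested) differed by at least 1 on the log2 scale, which is a doubling, and 71 higher and 76 lower differed by at least 2. The median size of a called difference was 0.90, against 0.13 over all probes tested, and the median over all probes was -0.01.

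Both orientations of the dyes gave the same direction for each of the 1241 called probes that had a value on both arrays, and 8 called probes had a value on 1 array. A call rests on the mean of these same 2 arrays, so this agreement largely follows from the call and is not separate support. Over all 19987 probes with both values the direction was shared by 59.8%, and the ratios of the 2 arrays correlated across probes at r = 0.708 (rho = 0.427), a description over probes that share RNA and slide. Replicate 2 correlated more closely with the 15 min array of the same dye orientation (r = 0.84, rho = 0.751), and also with the 24 h array of that orientation (r = 0.714, rho = 0.609), than with replicate 1. Replicate 1 correlated most closely with that same 15 min array (r = 0.752, rho = 0.529), which has the opposite orientation and was scanned on the same day. With the 15 min array of its own orientation replicate 1 had r = 0.667 (rho = 0.484). The part of dye orientation or scan day in single ratios was not tested. At least 1 log2 unit on both arrays was reached by 495 probes, and 17 of these pointed in opposite directions, 5 with Cy5 brighter and 12 with Cy3 brighter on both arrays. The array of replicate 1 was scanned on a day with 2 others and that of replicate 2 alone on its day, so the ratio of each array is also the value within its scan day. With the probes divided by mean intensity into 4 bins of equal number, 3.7% were called in the dimmest bin and 7.43%, 6.77% and 6.7% in the next 3.

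**Figure D1:**
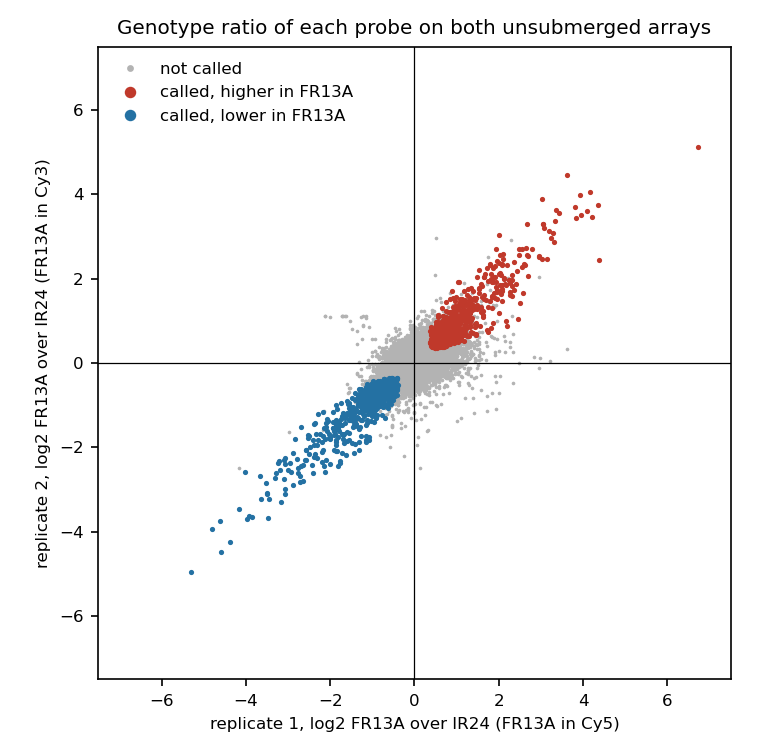
Log2 ratio of FR13A over IR24 for each kept probe, replicate 1 (FR13A in Cy5) on the horizontal axis and replicate 2 (FR13A in Cy3) on the vertical axis, with each point a probe. Of the 644 probes called higher in FR13A (red) and the 605 called lower (blue), 1241 had a value on both arrays. These lie in the corners where both arrays have the same direction. The 8 called probes with a value on 1 array are not drawn. Most uncalled probes (grey) lie near 0 on both arrays.

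The number of calls depended on both constitutive arrays. Without replicate 1 the fit called 178 probes and without replicate 2 it called 372, and 166 calls (67 higher, 99 lower) were kept whichever of the 6 arrays was left out. Global median centring in place of the intensity-dependent loess correction called 239, with a median size of 0.94 (median SE 0.27) for the 1249 probes. None of the 1249 changed direction under any alternative tried. The alternatives reuse the same arrays, on which the calls with 2 values already shared their direction, so this was largely fixed in advance. Each probe carries the accession of a rice cDNA, and whether FR13A and IR24 differ in sequence at a probe was not tested. In leaf RNA, fewer cells of a type and less RNA per cell cannot be told apart.

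The probes with the largest excess in FR13A came from stress, photosynthesis, hormone and defence genes. First was a gene like the dehydration-responsive RD22 of peach (AK105947), a family that answers drought and abscisic acid in Arabidopsis. Its level, in normalised log2 intensity on replicates 1 and 2, was 14.98 and 14.40 in FR13A and 8.25 and 9.27 in IR24. The difference was 5.93 (SE 0.43, adjusted p = 0.0023), a 61.0-fold excess in FR13A, and both genotypes were well above background on both arrays. A gene for the small subunit of Rubisco, the carbon-fixing enzyme (AK068266), read 12.71 and 12.54 in FR13A and 8.36 and 8.79 in IR24 (4.05, SE 0.19, adjusted p = 0.00181). This subunit is made by a family of similar genes, and cross-hybridisation between its members was not tested. A rice 1-aminocyclopropane-1-carboxylate (ACC) oxidase (AK058296), which carries out the last step of ethylene synthesis, read 11.91 and 11.71 in FR13A and 7.82 and 8.095 in IR24 (3.85, SE 0.15, adjusted p = 0.000601).

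Defence-related genes made up much of the rest of the 15 largest. The rci-1 lipoxygenase (AK066737), which oxidises fatty acids at the start of oxylipin synthesis, read 10.38 and 10.81 in FR13A and 6.75 and 6.34 in IR24 (4.05, SE 0.28, adjusted p = 0.00214). Probenazole-inducible protein PBZ1 (AK071613), a pathogenesis-related protein of the PR-10 family, read 14.98 and 15.13 in FR13A and 11.96 and 11.23 in IR24 (3.46, SE 0.57, adjusted p = 0.0267). A gene like the cotton delta-cadinene synthase, which closes the ring of a sesquiterpene (AK108761), was higher by 3.75 (SE 0.52, adjusted p = 0.016). The terpene synthase-like AK110925, described from oak, was at 3.17 (SE 0.29, adjusted p = 0.00445). In each of these 4 genes both FR13A values lay above both IR24 values. A gene like the belladonna salicylic acid carboxyl methyltransferase (AK070415), the enzyme that makes methyl salicylate, was higher by 2.81 (SE 0.30, adjusted p = 0.00728). A gene like the peroxidase ATP22a of Arabidopsis (AK064918) was higher by 3.14, with the SE at 0.08 and an adjusted p of 0.000372, and a cytochrome P450-like gene (AK106424) by 3.09 (SE 0.24).

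The other 5 of the 15 had mixed descriptions. A gene like SGR2 of Arabidopsis, which is needed there for the shoot's response to gravity (AK100611), was higher by 3.96 (SE 0.23, adjusted p = 0.00142). A gene like an extracellular cystatin of carrot, an inhibitor of cysteine proteases (AK102139), read 9.94 and 9.48 in FR13A and 6.66 and 6.40 in IR24, and IR24 was well above background on 1 of 2 arrays. The same held for AK066177 (3.17), described by At1g67840, and for AK108108 (2.75), described only by an Arabidopsis clone. AK101862, described by AT4g24840, was higher by 3.11 (SE 0.20). Of these 15 calls, 7 held with any 1 of the 6 arrays removed, among them the RD22-like, Rubisco, ACC oxidase and lipoxygenase genes. Without replicate 1, 8 lost the call (adjusted p from 0.0522 to 0.194), without replicate 2, 6 did (0.0541 to 0.195), and without either 24 h array 1 did (0.0534).

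On the other side, the largest deficits in FR13A fell mostly on genes known only by an Arabidopsis sequence. AK105777, like At4g12730, read 6.18 and 7.05 in FR13A and 11.49 and 12.02 in IR24 (-5.14, SE 0.14, adjusted p = 0.000372). AK066323, like AT5g17870, read 9.29 and 9.88 in FR13A and 13.88 and 14.37 in IR24 (-4.54, SE 0.25, adjusted p = 0.00133). A rice 21kd polypeptide gene (AK105453) read 6.496 and 7.15 in FR13A and 10.88 and 11.40 in IR24 (-4.32, SE 0.21, adjusted p = 0.000877). In these 3 genes the genotypes were separated by more than 3 log2 units on both arrays, and FR13A was still well above background. Both probes described by At2g48070 were lower, AK065418 by -4.18 (SE 0.20) and AK104635 by -3.30 (SE 0.32). AK072345, like At5g54440, was at -3.82, AK104609, like At1g57590, at -3.35 and AK100221, like At5g42500, at -3.30. At AK099121, like At3g48410, FR13A was not well above background on either array (5.51 and 6.11, against 8.76 and 8.48 in IR24), and FR13A was at least 6.81-fold lower (adjusted p = 0.00316).

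Among lower genes with a named product, FDRMADS6 (AK061899), a transcription factor of the MADS-box family that specifies floral and other organs, read 7.05 and 7.56 in FR13A and 10.57 and 10.40 in IR24 (-3.18, SE 0.18, adjusted p = 0.00145). AK064825, like the wheat peptidylprolyl isomerase, an enzyme that helps proteins fold, was at -3.24 (SE 0.15, adjusted p = 0.000817). A gene like the barley hypersensitive-induced reaction protein 4 (AK067979), of a family tied to cell death in immunity, read 7.41 and 7.28 in FR13A and 10.48 and 10.26 in IR24 (-3.03, SE 0.09, adjusted p = 0.000415). A gene like the maize HC toxin reductase hm1, which detoxifies a fungal toxin in maize (AK106089), was at -2.77 (SE 0.19, adjusted p = 0.00189). A short-chain alcohol dehydrogenase-like gene (AK069762) was at -2.95 (SE 0.17) and a gene described by a fungal cellulase (AK064349) at -3.44 (SE 0.11). All 15 of these calls were kept with any 1 of the 6 arrays removed.

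**Figure D2:**
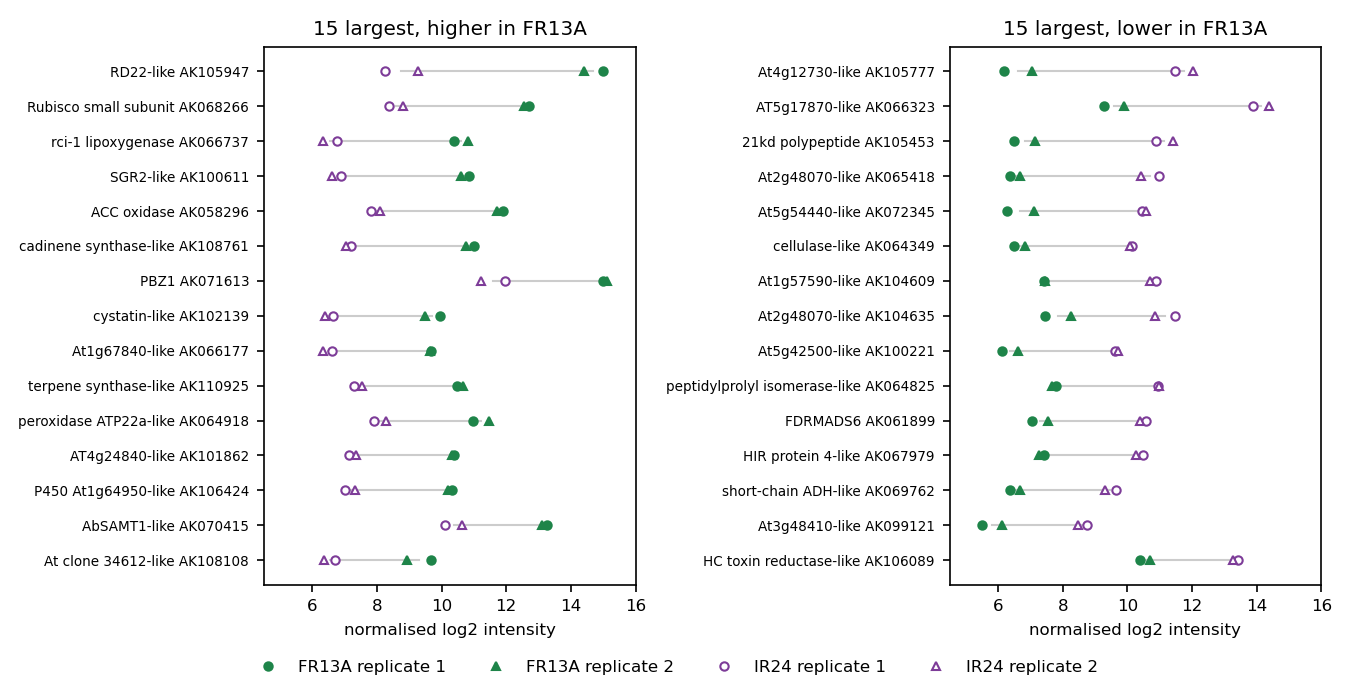
Normalised log2 intensity of the 15 described probes with the largest difference in each direction, FR13A as filled green and IR24 as open purple symbols, circles for replicate 1 and triangles for replicate 2, with a grey line between the genotype means. Genotypes are to be compared within a row only, and in each of the 30 rows both FR13A values lie on one side of both IR24 values.

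The measured genes were grouped into 32 lists by their descriptions, which together held 205 of the called probes. Against 6.15% of all probes tested, the share called was 19.4% for abscisic acid, dehydration and cold (7 higher and 5 lower of 62), 14.5% for phenylpropanoid and flavonoid synthesis (8 and 9 of 117), 13.6% for transposons (4 and 4 of 59), 12.7% for pathogenesis-related proteins (13 and 2 of 118) and 11.2% for cytochrome P450 (10 and 4 of 125). At the low end were glycolysis and sucrose breakdown with 1.41% (1 and 0 of 71), WRKY and NAC factors with 2.04% (1 and 0 of 49), histones and cell division with 2.78% (0 and 2 of 72) and ubiquitin, F-box and proteasome with 2.84% (3 and 2 of 176). Ethylene synthesis, with few members, had 15.4% (1 and 1 of 13). The median difference of the members lay near 0 in every list with at least 10 members except ethylene synthesis (0.26), with the others between -0.12 and 0.12.

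**Figure D3:**
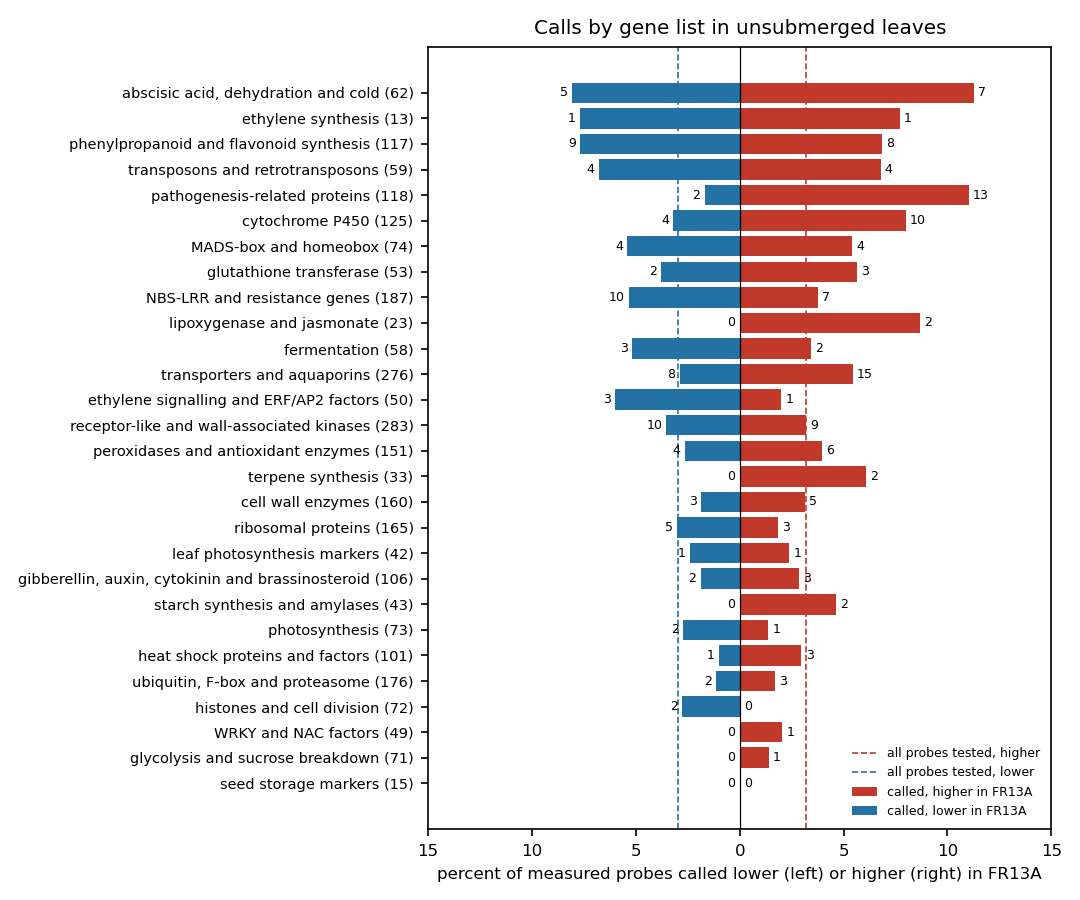
Percent of the measured probes of each gene list (number in brackets) called higher in FR13A (red, right) or lower in FR13A (blue, left), with the number called at the end of each bar, for the lists with at least 10 measured probes. Dashed lines mark 3.17% and 2.98%, the shares of all probes tested called higher and lower, and the pathogenesis-related list has 13 called higher and 2 lower.

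Pathogenesis-related proteins, which plants make in response to infection, had more calls higher than lower in FR13A: 13 of 118 measured probes were higher and 2 lower. The list does not hold the 6 probes described by csAtPR5 of goatgrass, of which 2 were lower, AK073546 at -2.24 (SE 0.20) and AK109038 at -0.61 (SE 0.09). The median over the list was 0.09, against -0.01 over all probes. Both called probes of PBZ1 were higher, AK099157 reading 9.55 and 9.998 in FR13A and 7.76 and 7.65 in IR24 (2.07, SE 0.28, adjusted p = 0.015). A gene like the wheat pathogenesis-related protein 1 (AK107926) read 8.82 and 9.66 in FR13A and 6.81 and 6.62 in IR24 (2.52, SE 0.29, adjusted p = 0.00873). Chitinases, which cut the chitin of fungal walls, supplied 7 of the 13: a tulip bulb chitinase-like gene (AK059767, 2.06), a class V chitinase-like gene (AK102820, 1.86), an acidic class III chitinase (AK100973, 1.73), a chickpea chitinase-like gene (AK106178, 1.44), OsChib3H-c (AK103295, 1.31), RCB4 (AK071453, 0.81) and a class I chitinase-like gene (AK103755, 0.69). The beta-1,3-glucanases, which cut fungal wall glucan, went both ways. AK067284 was at 1.56 and AK104472 at 1.16, while AK061392 was at -1.09 and AK104139 at -1.22. A thaumatin-like gene (AK069182) completed the list at 1.02 (SE 0.15, adjusted p = 0.0178).

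Signals and metabolites of defence were in smaller lists. Of 23 lipoxygenase and jasmonate probes 2 were higher and 0 lower (8.7% called, against 6.15% of all probes tested). They were rci-1 and the allene oxide cyclase gene (AK071443), an enzyme of jasmonate synthesis, at 0.66 (SE 0.13, adjusted p = 0.0452). Of 33 terpene synthesis probes 2 were higher and 0 lower (6.06%), both named above. Among 49 WRKY and NAC factors, transcription factors of stress and immunity, 1 was called (2.04%): a tobacco WRKY4-like gene (AK102093) read 11.48 and 11.20 in FR13A and 9.94 and 9.42 in IR24 (1.66, SE 0.10, adjusted p = 0.00159). The WRKY4-like gene and the glucanase AK067284 passed in each of the 6 fits that left 1 array out, and the other 16 of 18 called genes named here did not. Leaving out replicate 1 ended 14 calls (adjusted p from 0.084 to 0.332), leaving out replicate 2 ended 14 (0.0629 to 0.268), either 15 min array 1 (0.0542) and either 24 h array 3 (0.0509 to 0.0962).

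Immune receptor genes differed in both directions. Of 187 NBS-LRR and resistance gene probes, 7 were higher and 10 lower in FR13A (9.09% called), and the median was -0.03. The largest excess was at AK068168, like the barley powdery mildew receptor MLA6. It read 8.33 and 8.08 in FR13A against 6.52 and 5.97 in IR24, where it was not well above background on either array, so FR13A was at least 3.86-fold higher (adjusted p = 0.00148). A MLA13-like gene (AK066312) was higher by 1.39 (SE 0.09, adjusted p = 0.00181). The probe described by XA1, a bacterial blight receptor of rice (AK105096), was at 0.98 (SE 0.08). The largest deficits were in the NBS-LRR-like genes YR14 (AK065947), which read 6.55 and 6.67 in FR13A and 8.67 and 8.47 in IR24 (-1.96, SE 0.12, adjusted p = 0.00148), and YR48 (AK063494, -1.62, SE 0.13). PibH8 (AK065693), named after its likeness to a rice blast receptor, read 5.81 and 5.98 in FR13A, not well above background, against 7.74 and 7.13 in IR24. FR13A was at least 2.87-fold lower on the mean of the 2 arrays (adjusted p = 0.0147), with single ratios of -1.93 and -1.15.

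Within a single description the direction was not shared. Of 12 probes described by MLA6, 3 were higher and 3 lower, from 1.96 down to -1.14. Of 14 described by MLA13, 1 was higher and 1 lower, and of 10 described by PibH8, 1 was higher (AK067966, 0.54) and 1 lower. Such probes come from related genes and may cross-hybridise, which was not tested.

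Receptor-like and wall-associated kinases, which sense signals at the cell surface, were called at about the share of all probes (9 higher and 10 lower of 283, 6.71%). Members described by the Arabidopsis kinase RLK4 went both ways: AK111734 was higher by 1.16 (SE 0.11, adjusted p = 0.00531), and AK111594 read 5.45 and 6.18 in FR13A, not well above background, against 8.53 and 8.48 in IR24, at least 6.15-fold lower in FR13A (adjusted p = 0.00214). AK111558, like At1g28440, was higher by 1.25 (SE 0.22). AK111871, a leucine-rich receptor kinase-like gene that was not well above background in IR24, was at least 2.23-fold higher in FR13A (7.199 and 7.28, against 6.17 and 5.91 in IR24). A rice leucine-rich repeat receptor-like kinase (AK110685) was at -1.09 (SE 0.09, adjusted p = 0.00292). Of the 12 called receptor genes named here 4 were kept whichever array was left out, the MLA6-like AK068168, the MLA13-like gene, YR14 and AK111594. Without replicate 1, 8 did not pass (adjusted p from 0.0566 to 0.136), without replicate 2, 3 (0.0601 to 0.198), without either 15 min array 1 (0.0592) and without either 24 h array 2 (0.0681 and 0.0774).

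Ethylene synthesis had no common direction. Of its 13 measured probes 1 was higher and 1 lower (15.4% called, against 6.15% of all probes tested). A positive difference was seen at 10 of 13, with a median of 0.26. The 2 called members were both ACC oxidases: AK058296, given above, and ACO1 (AK065039), which read 9.23 and 9.37 in FR13A and 10.04 and 10.38 in IR24 (-0.91, SE 0.12, adjusted p = 0.0134). The remaining ACC oxidase probes lay between -0.15 (AK071557) and 0.67 (AK066805), and no ACC synthase probe was called, the wheat ACS2-like AK064250 being at 0.74 with an adjusted p of 0.456. In ethylene signalling and the ERF/AP2 factors 1 of 50 was higher and 3 were lower (8.0% called). An ethylene receptor-like gene (AK111520) was higher by 0.64 (SE 0.13, adjusted p = 0.0495), close to the threshold. A gene like EIN2, the membrane protein that relays the ethylene signal (AK105770), read 7.69 and 7.84 in FR13A and 8.62 and 8.42 in IR24 (-0.76, SE 0.12, adjusted p = 0.0232), while the other EIN2-like probes, AK111607 at -0.11 and AK111802 at 0.27, did not pass. The AP2/ERF factor cip353-like AK106057 was at -1.60 (SE 0.17, adjusted p = 0.00719), and a barley dehydration-responsive AP2 factor-like gene (AK071850) at -1.09 (SE 0.13).

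Among gibberellin, auxin, cytokinin and brassinosteroid genes 3 of 106 were higher and 2 lower (4.72%). An auxin-induced protein-like gene (AK105093) was higher by 1.77 (SE 0.16, adjusted p = 0.00386), a maize cis-zeatin O-glucosyltransferase-like gene, whose enzyme stores cytokinin as a sugar conjugate (AK101107), by 0.995 (SE 0.14) and the auxin response factor OsARF2 (AK072309) by 0.76 (SE 0.11). A cytokinin-binding protein-like gene (AK060655) was at -1.71 (SE 0.20, adjusted p = 0.00922), and an axi 1-like gene (AK105475), with FR13A well above background on 1 of 2 arrays, was at -0.71. AK058296 and AK105093 were kept whichever array was left out. The other 9 of 11 called hormone genes failed without replicate 1 (adjusted p from 0.109 to 0.359), 9 failed without replicate 2 (0.0512 to 0.157), 1 without either 15 min array (0.0504) and 1 without either 24 h array (0.0696).

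The abscisic acid, dehydration and cold list had the highest share of calls among the lists with at least 10 members, and the called genes were split. Beside the RD22-like gene, a rice chilling-regulated ABA sequence (AK066255) read 11.31 and 10.88 in FR13A and 8.70 and 8.54 in IR24 (2.47, SE 0.45, adjusted p = 0.036). The second probe of that sequence (AK105939), not well above background in IR24, was at least 1.28-fold higher (adjusted p = 0.047), and a second RD22-like gene (AK059729) was higher by 0.63. The water-stress-induced WSI76 (AK071812) was higher by 1.095 (SE 0.21, adjusted p = 0.045), a cold shock protein-like gene (AK101577) by 1.02 on replicate 1 alone, and a drought-inducible 22 kD protein-like gene (AK060261) by 0.84. At AK101577 the marked spot of replicate 2, left out of the fit, read 13.17 in FR13A and 13.13 in IR24. Lower were a cold-induced glucosyl transferase-like gene (AK107669, -1.77, SE 0.17), both probes of the wheat cold acclimation protein WCOR518 (AK062295, -1.20, SE 0.15, with 1 saturated spot in IR24, and AK062781, -0.95), the AP2 factor AK071850 and a late embryogenesis-abundant Lea14-like gene (AK061818, -0.79).

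Of 101 heat shock protein and factor probes 3 were higher and 1 lower, a share of 3.96%. HSP101 (AK105433), a chaperone that takes apart protein aggregates, read 9.40 and 9.33 in FR13A and 6.91 and 6.62 in IR24 (2.59, SE 0.17, adjusted p = 0.00181). A bean HSP70-like gene (AK069787) was higher by 0.78 (SE 0.14) and a wheat HSP80-like gene (AK102426) by 0.78 (SE 0.13), while a spinach heat shock C70-like gene (AK065431) was at -1.496 (SE 0.14, adjusted p = 0.00531). HSP101 and the glucosyl transferase-like AK107669 held with any 1 array removed. Of the 15 called stress genes named here, 12 failed without replicate 1 (adjusted p from 0.0866 to 0.304) and 1 had no value there. Without replicate 2, 12 failed (0.0545 to 0.223), without either 15 min array 3 (0.0505 to 0.0803) and without either 24 h array 6 (0.0514 to 0.0976).

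Genes of fermentation, which keep energy supply going without oxygen, were called at a share near that of all probes: 2 of 58 measured were higher and 3 lower (8.62%, against 6.15%). Pyruvate decarboxylase 1 (PDC1, AK100678), which turns pyruvate into acetaldehyde, read 7.70 and 7.85 in FR13A and 6.63 and 5.92 in IR24 (1.498, SE 0.29, adjusted p = 0.0436), with IR24 well above background on 1 of 2 arrays. The pyruvate decarboxylase RRJ2 (AK100501) was higher by 0.65 (SE 0.10, adjusted p = 0.0242). PDC2 (AK101594) had 11.45 and 11.84 in FR13A and 10.89 and 11.42 in IR24 and did not pass at 0.49 (adjusted p = 0.0623). Alcohol dehydrogenase, which makes ethanol from acetaldehyde, did not pass at any probe described as alcohol dehydrogenase 1 or 2: ADH1 had 0.10 at AK069330 (adjusted p = 0.737) and -0.20 at AK073964 (adjusted p = 0.672), and ADH2 (AK102799) had 0.02 (adjusted p = 0.964). The sign of AK073964 was positive (0.15) without constitutive replicate 1, and that of ADH2 negative both there (-0.11) and with median centring (-0.06). An alanine aminotransferase-like gene (AK067732), which makes alanine from pyruvate, read 13.16 and 12.77 in FR13A and 14.70 and 13.84 in IR24 (-1.30, SE 0.16, adjusted p = 0.0118). An aldehyde dehydrogenase gene (AK071169) was at -0.69 (SE 0.14, adjusted p = 0.0499), and the remaining call was the short-chain dehydrogenase-like AK069762, which is not of the fermentative type by its description.

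Carbohydrate genes showed few calls. A cytosolic glyceraldehyde-3-phosphate dehydrogenase (AK099086), an enzyme of glycolysis, was the 1 call among 71 glycolysis and sucrose breakdown probes, at 13.69 and 14.03 in FR13A and 12.47 and 12.65 in IR24 (1.29, SE 0.16, adjusted p = 0.0101). Of 43 starch and amylase probes 2 were higher and 0 lower (4.65%), a soluble starch synthase (AK109458, 0.76, SE 0.11) and an alpha-amylase sequence (AK069201, 0.45, SE 0.09). Both alternative oxidases of the list, which carry electrons to oxygen without pumping protons, were higher in FR13A: AOX1b (AK107376) read 8.36 and 8.39 in FR13A and 7.43 and 7.36 in IR24 (0.98, SE 0.11, adjusted p = 0.00914), and AOX1a (AK064040) read 8.75 and 8.59 in FR13A and 8.102 and 7.79 in IR24 (0.72, SE 0.14, adjusted p = 0.042). Hemoglobin 1 (AK064054), an oxygen-binding protein of plant cells, had 0.69 and did not pass (adjusted p = 0.0626).

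Photosynthesis genes were mostly close between the genotypes, with 1 higher (the Rubisco probe given above) and 2 lower of 73 (4.11%) and a median of -0.12. Ribulose-5-phosphate-3-epimerase (RPE, AK066306), an enzyme of the Calvin cycle, read 7.13 and 6.995 in FR13A and 8.67 and 8.35 in IR24 (-1.45, SE 0.11, adjusted p = 0.00248). A photosystem I subunit PSI-L-like gene (AK063111) was at -0.84 (SE 0.15, adjusted p = 0.0379). Among the 12 called genes of metabolism named here, only AK069762 was kept whichever array was left out. Replicate 1 decided 11 calls (adjusted p without it from 0.0566 to 0.365), replicate 2 decided 10 (0.0515 to 0.248), either 15 min array 2 (0.0649 and 0.0703) and either 24 h array 5 (0.0587 to 0.0859).

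Phenylpropanoid and flavonoid genes, whose products include lignin, pigments and antimicrobials, split into 8 higher and 9 lower of 117. Genes called higher in FR13A included barley and wheat phenylalanine ammonia-lyase-like genes (AK067801, 1.85, and AK068993, 1.21) and a chalcone synthase-like gene (AK061132), which begins flavonoid synthesis and read 10.64 and 9.91 in FR13A and 8.32 and 8.08 in IR24 (2.07, SE 0.18, adjusted p = 0.00809). Also higher were a flavanone 3-hydroxylase-like gene (AK100853, 1.46), a rhamnosyl-transferase-like gene (AK061074, 0.99) and the cinnamoyl-CoA reductase-like genes AK062287 (0.90) and AK068648 (0.78), while a further cinnamoyl-CoA reductase-like gene (AK062411) was at -0.83. The called laccases, which polymerise lignin, were lower. A high-pI laccase (AK068047) was at -2.32 (SE 0.32), a ryegrass laccase-like gene (AK066963) at -1.90 (SE 0.21), a cinnamyl alcohol dehydrogenase-like gene (AK067085) at -1.90 (SE 0.18) and an isoflavone reductase-like gene (AK061325) at -2.16 (SE 0.15). Anthocyanidin reductase-like probes went both ways: AK059518 read 7.999 and 7.89 in FR13A and 10.71 and 10.58 in IR24 (-2.70, SE 0.10, adjusted p = 0.000601), and AK072654 read 11.27 and 11.18 in FR13A and 9.68 and 9.60 in IR24 (1.59, SE 0.15, adjusted p = 0.00514).

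Among 125 cytochrome P450 probes, oxygenases of many pathways, 10 were higher and 4 lower. Beside AK106424, the called genes included 2 described by the same rice gene, CYP87A3, of which AK103336 was higher by 1.18 (SE 0.17) and AK065238 was at -1.42 (SE 0.13). An avocado CYP71A1-like gene (AK071599) was higher by 1.10 (SE 0.11) and a soybean CYP71D10-like gene (AK067543) was at -2.13 (SE 0.17, adjusted p = 0.00315). Glutathione transferases, which conjugate toxic compounds, gave 3 higher and 2 lower of 53 (9.43%). OsGSTU17 (AK099489) read 12.05 and 12.13 in FR13A and 10.15 and 10.10 in IR24 (1.96, SE 0.16, adjusted p = 0.00298), and OsGSTU11 (AK061436) read 7.30 and 7.29 in FR13A and 8.91 and 8.93 in IR24 (-1.62, SE 0.12, adjusted p = 0.00272). Also called were a maize GST 20-like gene (AK064650, 1.25, SE 0.08), AK103316 (1.18) and AK071745 (-1.41).

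Peroxidases and antioxidant enzymes were called at about the share of all probes (6 higher and 4 lower of 151, 6.62%). Both ascorbate peroxidases called, APXb (AK068430, 0.98) and AK061841 (0.70), were higher in FR13A, as were a cationic peroxidase-like gene (AK109551, 2.11, SE 0.23) and a prxr5-like gene (AK061013, 1.53, SE 0.26). A rice peroxidase (AK108713) was at -1.92 (SE 0.19), a thioredoxin-like gene (AK103756) at -1.35, a peroxiredoxin Q-like gene (AK059845) at -0.997 and the metal-binding metallothionein OsMT-1 (AK103162) at -1.66 (SE 0.21). The isoflavone reductase-like AK061325, the anthocyanidin reductase-like AK059518, the CYP71D10-like AK067543 and the GST 20-like AK064650 were the 4 of 32 called genes in this group that passed whichever array was left out. Without replicate 1, 27 did not pass (adjusted p from 0.0641 to 0.296), without replicate 2, 23 (0.0514 to 0.191) and without either 24 h array 2 (0.0634 and 0.0685).

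Transporters and aquaporins had 15 higher and 8 lower of 276 (8.33%). Uptake of sugar, sulfate and nitrogen was represented among the higher genes by a sugar transporter (AK073216, 9.19 and 9.02 in FR13A, 7.33 and 6.77 in IR24, 2.06, SE 0.20, adjusted p = 0.00514), a sulfate transporter-like gene (AK066932, 1.60, SE 0.20) and an ammonium transporter AMT2-like gene (AK100411, 1.56, SE 0.20). An ABC transporter-like gene (AK067639), with a ratio on replicate 2 alone, was at 2.26 (SE 0.19, adjusted p = 0.00739). Of the same classes, a sugar transporter-like gene (AK099395, -0.98) and a sulfate transporter-like gene (AK067270, -0.73) were lower. A vacuolar Na+/H+ antiporter NHX2-like gene (AK072114) was at -1.67 (SE 0.14, adjusted p = 0.00312) and an aquaporin-like gene (AK109439), of a family of water channels, at -1.42 (SE 0.19).

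Cell wall genes were called at a share near that of all probes, 5 higher and 3 lower of 160 (5.0%, against 6.15%). A xyloglucan fucosyltransferase-like gene (AK071664) was higher by 1.39 (SE 0.13) and a cellulose synthase-like gene (AK072259) by 1.01 (SE 0.12). Lower were an endo-xyloglucan transferase-like gene that cuts and rejoins wall chains (AK061093, -1.11, SE 0.13) and, beside AK064349, a second probe described by the same fungal cellulase (AK060558, -1.13, SE 0.08). Ribosomal proteins had 3 higher and 5 lower of 165 (4.85%), and 110 of 165 differences were negative with a median of -0.06. AK066379, described by a fern ribosomal protein I, read 6.06 and 6.23 in FR13A and 8.23 and 8.29 in IR24 (-2.12, SE 0.11, adjusted p = 0.00106). The chloroplast ribosomal protein L28-like gene (AK067481), with a ratio on replicate 2 alone, was at -1.32, and a ribosomal protein L27-like gene (AK063072) was at -0.99 (SE 0.09). The 60S L1-like gene (AK060711) was higher by 1.03 (SE 0.13) and L41 (AK058924) by 0.75 (SE 0.11).

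MADS-box and homeobox genes, regulators of organ identity and development, had 4 higher and 4 lower of 74 (10.8%). After FDRMADS6 the largest deficit was a MADS box-like gene (AK066160), at 8.05 and 8.36 in FR13A and 10.41 and 10.53 in IR24 (-2.26, SE 0.14, adjusted p = 0.00159). MADS2 (AK070894) was at -0.86 (SE 0.15), another MADS box-like gene (AK069122) was higher by 1.15 (SE 0.20) and the homeodomain factor HDTF (AK063825) by 0.79 (SE 0.14). Of 4 circadian clock probes 0 were called, and all 4 differences were negative, with the gigantea homologue AK072166 at -0.35 (adjusted p = 0.0894) and a LHY-like gene (AK111726) at -0.28 (adjusted p = 0.27). In protein turnover an F-box protein-like gene (AK068929) was at -1.91 (SE 0.11, adjusted p = 0.00135) and an ORE9-like F-box gene (AK107102), which in Arabidopsis acts in leaf senescence and branching, was higher by 0.83 (SE 0.10). A UBC11-like ubiquitin-conjugating enzyme (AK108167) was higher by 1.36 (SE 0.12), the proteasome subunit OsRPN3 (AK061287) by 0.56 (SE 0.10), and another conjugating enzyme (AK104965) was at -0.71 (SE 0.08). The 2 cell division calls were both lower, a D-type cyclin cycD1-like gene (AK070370, -0.99, SE 0.15) and a CDC5-like gene (AK102248, -0.96, SE 0.19).

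Mobile elements differed in both directions. At AK106705, described by the gag region of a retrotransposon, FR13A read 5.69 and 6.06, not well above background, against 7.84 and 7.59 in IR24, at least 3.59-fold lower in FR13A (adjusted p = 0.00517). AK064547, a retrotransposon homolog, was likewise at least 3.13-fold lower (5.76 and 6.18 in FR13A, 7.63 and 7.60 in IR24). Of the 2 called probes of the Doppia transposase of maize, AK063411 was at -1.48 (SE 0.12) and AK108032, not well above background in IR24, was at least 2.47-fold higher in FR13A (8.05 and 6.99, against 6.43 and 5.76 in IR24). A carrot transposable element-like probe (AK066385) was higher by 1.47 (SE 0.16). Of the called genes named for transport, wall, ribosome, development, protein turnover and mobile elements, 6 of 34 passed whichever array was left out (AK064349, AK066379, AK066160, AK068929, AK064547 and AK063411). Without replicate 1, 27 (adjusted p from 0.053 to 0.282) did not pass, without replicate 2, 19 (adjusted p from 0.0531 to 0.15), without either 15 min array 1 (0.0547) and without either 24 h array 7 (adjusted p from 0.0579 to 0.0857), and AK067639 and AK067481 had no value without replicate 2.

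Marker genes of several tissues were counted among the kept probes. Of 42 leaf photosynthesis markers 41 were well above background on both arrays in FR13A and 41 in IR24. Of 8 root-specific probes 8 and 5 were so in FR13A and IR24, of 9 pollen probes 8 and 5, and of 15 seed storage probes 13 and 13. Kept probes had already been well above background in a channel on at least 2 of 6 arrays. These counts were therefore largely fixed by the filter and cannot check the tissue label. Over all gene probes, before the filter, 87.3% to 92.7% passed that test in each dye of a single array. No pollen or seed storage probe was called. The root markers had 1 higher and 1 lower, RCc2 (AK062911, 0.85, SE 0.14) and RCc3 (AK063684, -1.495, SE 0.24), and the other 6 lay between -0.23 (AK062654) and 0.38 (AK063090), with none of these called. Neither of these 2 calls passed without replicate 1 (adjusted p of 0.163 and 0.17) or without either 24 h array (0.0562 and 0.0596), and 1 failed without replicate 2 (0.185). The pollen probes of smallest p were AK069922 at 0.39 (adjusted p = 0.109) and AK070662 at 0.52 (adjusted p = 0.134), and the seed storage probes were AK063624 at 0.26 (adjusted p = 0.276) and AK070276 at -0.12 (adjusted p = 0.497). The part of other tissues in the differences was not tested.

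Because many probes share a description, the direction within a description could be counted. Of 3091 descriptions shared by 2 or more probes, 58 had at least 2 called probes, and in 25 of these the called probes went both ways while in 33 they went one way. Examples with 1 direction, chosen after their values were seen, were the 33-kDa secretory protein of rice (3 higher of 9 probes, up to 1.85), an oat beta-amyrin synthase, which makes the triterpene skeleton of saponins (2 lower of 6, down to -2.71), an oat SAR1-like small GTPase of vesicle traffic (2 lower of 5, down to -2.30) and csAtPR5 of goatgrass (2 lower of 6, down to -2.24). Probes of a shared description are not replicates of one another.

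Undescribed probes were called at 7.33% (373 of 5088) and described ones at 5.75% (876 of 15226). The largest undescribed differences were smaller than the largest described ones in both directions. AK072886 read 11.25 and 10.78 in FR13A and 7.09 and 6.72 in IR24 (4.11, SE 0.17, adjusted p = 0.000725), AK111404 was at 3.84 (SE 0.24) and AK066116 at 3.73 (SE 0.14). AK072376 read 6.26 and 6.63 in FR13A and 11.08 and 10.55 in IR24 (-4.37, SE 0.21, adjusted p = 0.000877), AK061190 was at -3.84 (SE 0.15) and AK099155 at -3.78 (SE 0.11). These 6 calls were kept with any 1 of the 6 arrays removed. Among all called probes, 45 of those higher had FR13A well above background on both arrays and IR24 on neither. In 38 of those lower IR24 was well above it on both arrays and FR13A on neither. In 1112 both genotypes were well above it on both arrays.

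The unsubmerged differences were then set against those of submerged leaves, which come from separate arrays. The contrast of the unsubmerged difference with the mean of both submerged times called 0 of 20288 probes (0.0%) in limma, with a smallest adjusted p of 0.27, and 925 probes (4.56%) had an unadjusted p under 0.05. Leaving out replicate 1 of the 15 min arrays called 1 probe, AK110925 (adjusted p = 0.0483). The probes of smallest p were the undescribed AK109213, with a ratio of 1.64 and 1.53 in unsubmerged leaves, 0.32 and 0.06 at 15 min and 0.05 and 0.12 at 24 h, the undescribed AK110646, and AK064650, AK072654 and AK070705, which are described further on. Of the 1197 called probes with a value on all 4 submerged arrays, 1114 (93.1%) had their unsubmerged direction on every one of them, against 34.5% of all probes tested. The submerged arrays also gave part of the spread behind each call. All probes tested had a median size of 0.13, against 0.90 for the called ones, so their sign was less settled. The 93.1% is therefore a description and not separate support. The median difference of the probes called higher was 0.89 in unsubmerged leaves, 0.73 at 15 min and 0.76 at 24 h. That of the probes called lower was -0.92 in unsubmerged leaves, -0.83 at 15 min and -0.89 at 24 h. These probes were chosen on the unsubmerged values, so a smaller size at another time is a description and not a test.

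**Figure D4:**
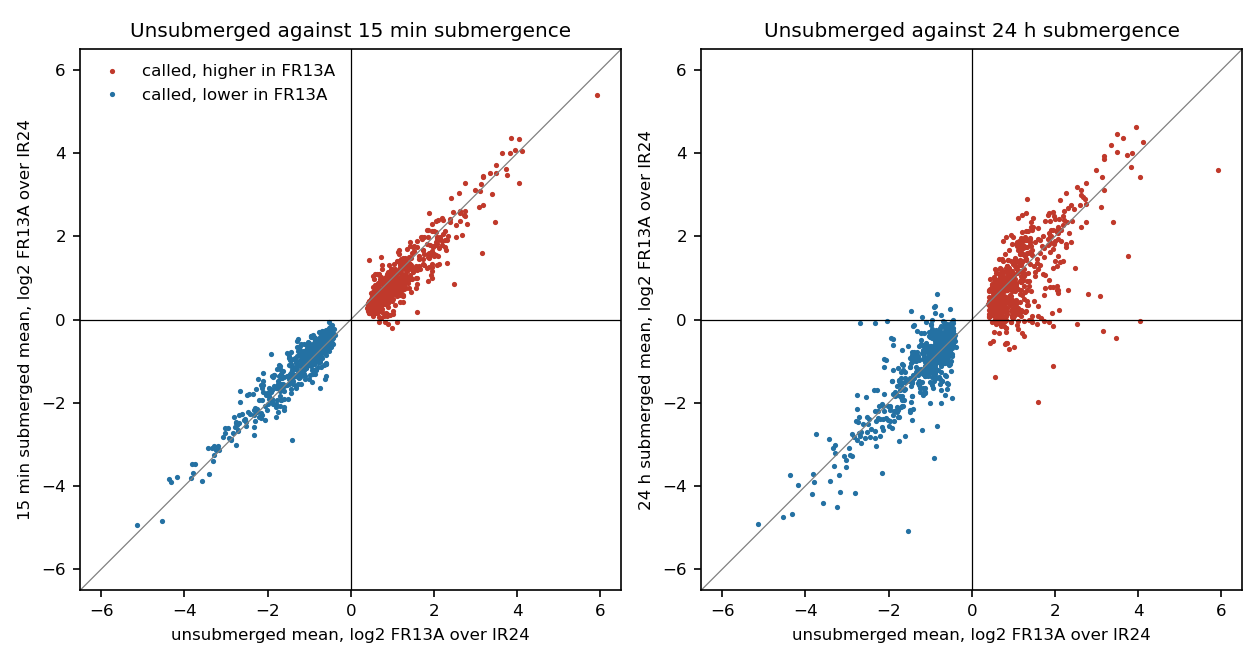
Mean log2 ratio of FR13A over IR24 in unsubmerged leaves (horizontal) and after 15 min (left panel) or 24 h (right panel) under water (vertical) for the probes called in unsubmerged leaves, red for higher and blue for lower in FR13A, with the line of equal values in grey. Of these probes 5 had the opposite sign at 15 min and 54 at 24 h.

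Against each time alone, a choice made after seeing the data, 0 of 20311 probes were called at 15 min (0.0%, smallest adjusted p 0.593, 428 at an unadjusted p under 0.05) and 22 of 20291 at 24 h (0.108%). Of the 22, 12 were also called in unsubmerged leaves, and 10 were not and differed by over 1 at 24 h. Some of these 10 lay near 0 in unsubmerged leaves, such as AK066003 at -0.006 and AK073328 at 0.03, where the sign means little. In 8 of the 22 calls the sign of the mean was opposite, AK066003 and AK073328 included. These calls were fragile: 0 passed without constitutive replicate 1, without constitutive replicate 2, without either 24 h array, with median centring or with the replicate block, and 7 passed without either 15 min array. Unsubmerged leaves had the larger excess in FR13A at the WRKY4-like AK102093 (1.54 and 1.78 unsubmerged, 0.15 and -0.05 at 24 h), at the maize GST 20-like AK064650 (1.32 and 1.19 unsubmerged, -0.37 and -0.41 at 24 h) and at a 1-deoxyxylulose 5-phosphate synthase-like gene of plastid isoprenoid synthesis (AK100909, 1.93 unsubmerged and 0.15 at 24 h). At the anthocyanidin reductase-like AK072654 the ratio was 1.59 and 1.58 in unsubmerged leaves and -2.22 and -1.76 at 24 h, a difference of 3.58 (SE 0.21, adjusted p = 0.0266). The PibH8 probe AK065693 was at -1.93 and -1.15 in unsubmerged leaves and at -5.31 and -4.86 at 24 h (3.55, SE 0.29, adjusted p = 0.0373).

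AK070705, described by the cytosolic phosphoglycerate kinase of wheat, an enzyme of glycolysis, was at -0.11 and 0.14 in unsubmerged leaves and at 3.37 and 3.41 at 24 h (-3.38, SE 0.15, adjusted p = 0.0176). So the genotypes did not pass the test at this gene before submergence (adjusted p = 0.972). The same pattern was seen at AK107152, like AT3g11930 (0.17 unsubmerged and 3.38 at 24 h), at the undescribed AK110639 (0.33 and 3.00) and at germin-like protein 2 (GER2, AK059812, -0.37 and 1.31). Several of the largest defence differences were near 0 at 24 h without passing the test of the change (adjusted p = 0.0625 and 0.275): rci-1 (AK066737) had 4.05 in unsubmerged leaves, 3.30 at 15 min and -0.03 at 24 h, and PBZ1 AK071613 had 3.46, 2.34 and -0.45. For the 13 pathogenesis-related probes called higher the median was 1.56 in unsubmerged leaves, 1.07 at 15 min and 0.72 at 24 h, and 10 of 13 were still positive at 24 h. The 2 pathogenesis-related probes called lower had medians of -1.16, -1.09 and -0.80 at these times. The 7 resistance gene probes called higher had medians of 0.98, 0.97 and 1.86 at these times, and 7 of 7 were positive at 24 h. The 10 resistance gene probes called lower had -0.90, -0.82 and -1.12, and 0 of 10 were positive at 24 h. Among the alternative oxidases, AOX1b (AK107376) had 0.98 in unsubmerged leaves, 0.49 at 15 min and 0.06 at 24 h. The day of harvest and the arrays go with the 24 h group, so treatment, day and array cannot be told apart here.

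**Figure D5:**
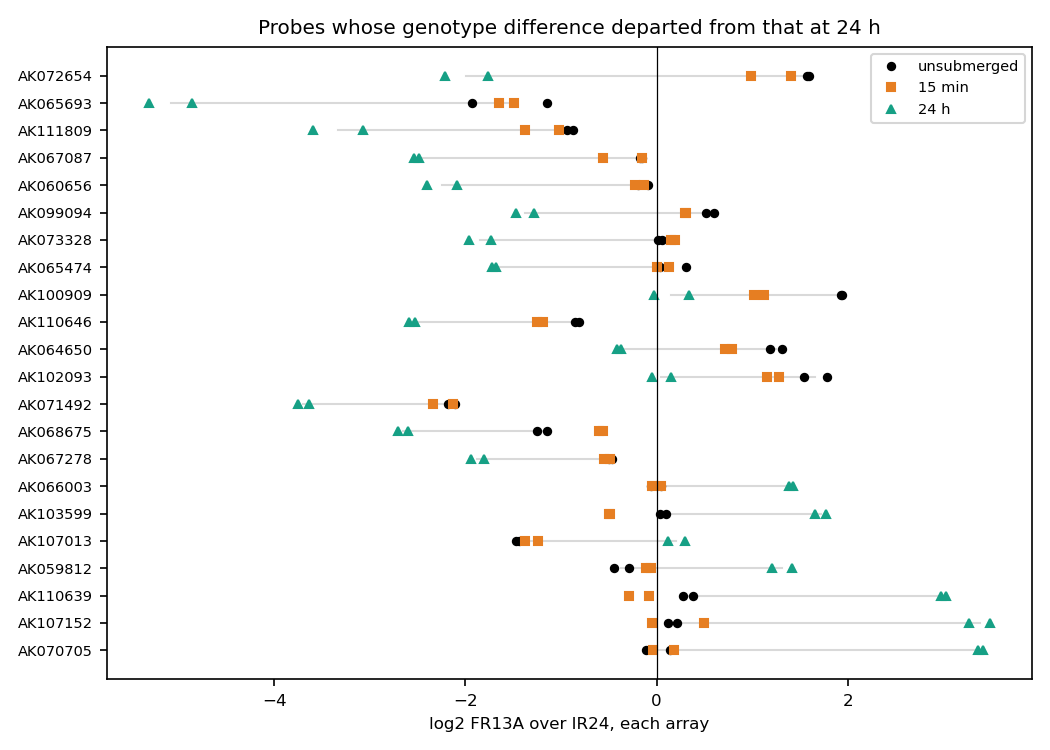
Log2 ratio of FR13A over IR24 on each array for the 22 probes whose unsubmerged difference departed from that at 24 h, black circles for unsubmerged leaves, orange squares for 15 min and green triangles for 24 h, ordered by the unsubmerged minus 24 h difference. At AK072654 the unsubmerged values lie at 1.59 and 1.58 and the 24 h values at -2.22 and -1.76, and at AK070705 the unsubmerged values lie near 0 and the 24 h values at 3.37 and 3.41.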

How the data were processed

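RNA of both genotypes was hybridised to each 2-colour array. The deposited files hold scanned mean and background intensity per spot and dye, made with Agilent Feature Extraction 8.1 per the submitters' processing notes. They also hold a deposited log10 ratio of red over green, and the deposited series table served as an alternative.

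In limma 3.58.1 (R 4.3.3), background was corrected with normexp (offset 50) and dyes with loess in each array, control spots having weight 0. Marked spots were left out. A probe was kept where either channel was well above background on at least 2 of 6 arrays. Log2 FR13A over IR24 was fitted with 1 mean per time over all 6 arrays (3 residual and 2.629 prior degrees of freedom), two-sided, with Benjamini-Hochberg adjustment over all probes. Levels per genotype came from Aquantile scaling and are comparable only within a probe. A bound ("at least") sets the bright genotype against the lowest signal well above background on each array, or the dim probe's own where higher. It is taken on the mean of the 2 arrays and leaves out the SE. The fit was tried on simulated ratios with independent normal noise at the fitted spread. These held no dye or scan-day effect, so they do not check the calls against such effects.

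The number of arrays limits the precision. Genes named were the 15 largest described calls each way, up to 5 calls per list or the 2 of smallest p, 8 submergence genes, the 5 of smallest p between times, and 3 undescribed probes each way. Further list members, and the probes called against 24 h, were named after their values were seen. The members and lists were chosen with earlier results of these data known, and the list patterns were corrected on descriptions. Names are those of the array design. A name from another species is written "like". Of the array accessions 0 matched the RefSeq table, so no coordinates are given. Replicate numbers mark the dye orientation. Deviations of same-numbered arrays correlated at 0.0938 (constitutive and 15 min), 0.0625 (constitutive and 24 h) and 0.401 (15 min and 24 h). The main fit did not pair the numbers, although the 2 submerged groups shared part of their deviations. A replicate block was fitted as an alternative. Alternatives covered background, normalization, filters, marked spots, scan day, replicate block, array weights, the arrays fitted and each array left out.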

Additional observations from a re-analysis of the deposited data

Results flagged for a closer look

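For 8 named probes the genotype difference in unsubmerged leaves departed from that after 24 h under water, either by the test of the difference or because all arrays of the 2 groups had opposite signs. The unsubmerged minus 24 h difference, in log2 units and with its adjusted p from limma, was 3.58 for the anthocyanidin reductase-like AK072654 (0.0266), 3.55 for PibH8 AK065693 (0.0373), 1.61 for the WRKY4-like AK102093 (0.0491), 1.64 for the GST 20-like AK064650 (0.0266), 1.72 for the undescribed AK110646 (0.0266) and -3.38 for the phosphoglycerate kinase-like AK070705 (0.0176). At AK110646 both genotype differences were negative, -0.84 in unsubmerged leaves and -2.56 at 24 h. For the terpene synthase-like AK110925 the difference was 3.44 and for the ammonium transporter-like AK100411 it was 1.66, with every unsubmerged array positive and every 24 h array negative, and neither passed the test (0.0826 and 0.184). None of the 6 tests passed with any constitutive or 24 h array removed, with median centring or with the replicate block.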

How the results depend on the processing

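The count of 1249 genotype differences stayed within 1.5 times under 9 alternatives to the fit over all arrays: 1516 with plain background subtraction, 1609 with the scanner software's processed signals, 1610 with the series table, 1186 without the filter on dim probes, 1266 with a strict one, 1152 with marked spots kept, 1265 with scan day as a block, 1018 with array weights and 1703 (975 higher, 728 lower) with the constitutive arrays only. With the replicate block, fitted as a dye term, the count was 1259, of which 1051 were among the 1249. Median centring in place of loess gave 239 (114 higher, 125 lower), all among the 1249, with a larger SE at similar sizes. A minimum size of 1 gave 530, and 166 calls were kept whichever array was left out. Leaving out 1 array gave 178 to 1306, lowest without constitutive replicate 1 and 372 without constitutive replicate 2. The cause was not tested beyond the smaller number of arrays. The contrast with submerged leaves called 0 to 1 probes over the left-out arrays, 0 with the replicate block and under the alternatives to background, normalization, filter, scan day and weights, and 22 against 24 h alone. Those 22 became 7 without either 15 min array, 0 without any other array, 0 with median centring and 0 with the replicate block, and numbered 19 to 31 under the other alternatives. Of 139 named genes none that was called changed direction, which is not separate support, since the alternatives reuse the same arrays. The uncalled ADH2 probe AK102799 was at -0.0641 with median centring and between -0.107 and 0.156 over the left-out arrays, and the uncalled ADH1 probe AK073964 ranged from -0.543 to 0.15. The number of arrays, 2 in the group, limited the precision, with signal over background between 3.52 and 7.02.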
